A study of Mus musculus with 24 samples.

Results

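Regions of the mouse genome that carried H3K4me3 peaks repeatedly and no Sox9 peak were examined in injured kidney. All peaks of 16 CUT&RUN peak lists on chromosomes 1 to 19 were merged where they overlapped or touched, which gave 497341 regions. A member is a merged region with a peak in at least 3 of the 8 H3K4me3 lists and in 0 of the 8 Sox9 lists. The members were thus chosen by measured peaks of both antibodies, and the rule found 1345 of them. A further 1959 regions met the H3K4me3 condition but had a Sox9 peak in at least 1 list, and are called shared regions.

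The cells came from male Sox9IRES-CreERT2/+:R26RtdT/+ mice of 9 to 12 weeks and 25 to 30 g. In these animals the Sox9 locus drives a tamoxifen-dependent Cre recombinase, and the recombinase switches on the red protein tdTomato, so a cell that expressed Sox9 when tamoxifen was given, and its progeny, stay marked. Every animal had bilateral renal ischemia reperfusion injury, with tamoxifen given at injury, and cells of the cortex and outer medulla were sorted at 48 h or at 10 days. Uninjured kidneys and unmarked cells were not analysed here. Each group had 4 biological replicates. Pellets of about 100000 cells were fixed in 0.2% PFA and frozen, and each was split in 3 aliquots, for the Sox9 antibody, for the H3K4me3 antibody as a positive control, and as input. The 8 inputs of the 24 samples were not analysed here. The time comes from the sample titles, since the cell type label names day 10 also for the samples titled 48 h.

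H3K4me3 is histone H3 trimethylated at lysine 4, a mark laid down mostly around the start sites of active and poised genes, in particular where the promoter is rich in CpG dinucleotides. Sox9 is a DNA-binding transcription factor of the SRY-related HMG-box family that is known to be switched on in tubule cells after kidney injury. In CUT&RUN an antibody tethers a nuclease to chromatin, the DNA around the antibody is cut free and sequenced, and a peak marks a place where fragments pile up above the local background.

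Promoter sequences at 4 members show where the member begins relative to the gene. Each is the 250 bases before a start site, 5′ to 3′ along the gene, from RefSeq on GRCm38.p6, and capitals mark the bases that lie inside the member region. Tomm22 (chr15:79670618-79670867, plus strand) was in 6 lists and is 1 of the members found most often. Spesp1 (chr9:62282180-62282429, minus strand) and Wtap (chr17:12992544-12992793, minus strand) had a peak in all 4 lists of 48 h and none of 10 days. Hey2 (chr10:30842784-30843033, minus strand) stands for the Notch pathway.
Tomm22: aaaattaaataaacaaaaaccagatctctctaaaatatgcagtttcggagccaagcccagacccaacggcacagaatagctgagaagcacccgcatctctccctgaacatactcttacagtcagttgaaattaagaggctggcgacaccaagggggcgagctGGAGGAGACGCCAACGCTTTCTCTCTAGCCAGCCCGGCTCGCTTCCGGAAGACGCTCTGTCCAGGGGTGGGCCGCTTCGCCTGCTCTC
Spesp1: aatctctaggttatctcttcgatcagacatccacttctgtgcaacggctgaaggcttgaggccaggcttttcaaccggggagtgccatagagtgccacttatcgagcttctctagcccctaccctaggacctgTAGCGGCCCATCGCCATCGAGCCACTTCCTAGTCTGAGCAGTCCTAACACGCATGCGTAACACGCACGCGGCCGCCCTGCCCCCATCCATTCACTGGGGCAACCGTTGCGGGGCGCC
Wtap: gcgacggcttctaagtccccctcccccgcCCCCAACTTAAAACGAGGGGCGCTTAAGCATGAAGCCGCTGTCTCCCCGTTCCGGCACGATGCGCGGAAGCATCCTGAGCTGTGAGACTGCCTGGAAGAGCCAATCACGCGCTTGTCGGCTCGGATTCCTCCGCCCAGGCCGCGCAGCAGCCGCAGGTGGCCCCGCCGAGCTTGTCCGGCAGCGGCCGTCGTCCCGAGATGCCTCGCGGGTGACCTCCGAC
Hey2: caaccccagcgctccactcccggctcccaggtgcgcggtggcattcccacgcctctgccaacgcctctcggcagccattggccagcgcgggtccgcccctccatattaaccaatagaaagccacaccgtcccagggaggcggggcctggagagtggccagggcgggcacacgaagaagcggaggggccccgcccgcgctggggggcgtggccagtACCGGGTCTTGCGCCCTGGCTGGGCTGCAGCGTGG
All 4 sequences lie upstream of the annotated gene. The GC content of the 250 bases, beside a median of 57.0% over all promoters, was 53.6% for Tomm22, 58.8% for Spesp1, 68.0% for Wtap and 71.6% for Hey2. They hold 13, 16, 29 and 22 CpG dinucleotides in the same order. The member covers 88, 117, 221 and 35 of the 250 bases, so for Hey2, Tomm22 and Spesp1 these values describe mostly the sequence next to the member. The ETS word CCGGAAG is in the capitals of Tomm22, and the CCAAT box word is in the capitals of Wtap and, for Hey2, outside them.

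The lists were of unequal length and their peaks were low, and both touch every count that follows. On chromosomes 1 to 19 the H3K4me3 lists held 24718 to 84789 peaks and the Sox9 lists 7379 to 81519. Peak heights were solved from the deposited fold and p, and a step is the most common height in a list. Heights came out as whole multiples of 1 step in 99.6% or more of the peaks of each list, within a tolerance of 0.05. Rounded to whole steps, between 92.3% and 97.1% of the peaks of an H3K4me3 list were 1 step high. The read depth behind the lists is unknown. H3K4me3 at the starts of tubule markers was sparse. Umod, Aqp2, Havcr1 and Krt8 had H3K4me3 in 0 lists at a start, Lrp2 in 1 and Slc34a1 in 2, against a mean of 1.30 lists over all protein-coding genes. Of 18 markers of tubule, podocyte, endothelium, stroma and immune cells only the podocyte gene Wt1 had a member at a start. Ptprc and Cd3e, which mark immune cells, were in 0 lists and Cd68 in 1. By cell type the mean was 0.5 lists for tubule, 2 for podocyte, 1.33 for endothelium, 1 for stroma and 0.333 for immune markers. Tubule markers were thus below those of podocyte, endothelium and stroma.

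Members were mostly at the edge of the rule. Of the 1345 members, 1119 were in 3 H3K4me3 lists, 181 in 4, 33 in 5, 11 in 6 and 1 in 7, and no region in all 8 was free of Sox9. Just outside the rule were 10647 regions with 2 H3K4me3 lists and no Sox9 list, and 889 regions with 3 or more H3K4me3 lists and 1 Sox9 list. The share of regions without Sox9 was lower with each further list, from 94.6% of those in 1 H3K4me3 list through 50.7% at 3 lists and 15.9% at 5 to 0% at 8. These counts are the rule's own values and carry no test.

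Members lay at gene starts far more often than single-list regions did. The midpoint of 578 members (43.0%) was within 1000 bp of the start of a protein-coding gene, where 5.96% of all merged regions were. Throughout, either end stood in for the start in the 4208 genes for which no start was given. With known starts alone the shares were 35.5% of members and 3.86% of regions of 1 H3K4me3 list without Sox9. Another 424 (31.5%) were inside a protein-coding gene but away from a start, and 343 (25.5%) outside protein-coding genes. Among regions without Sox9, the share at a start was 5.13% with 1 H3K4me3 list, 19.5% with 2, 41.5% with 3 and 55.2% with 4. It was lower again in the few regions beyond, at 12 of 33 with 5 lists and 2 of 11 with 6. Just across the Sox9 boundary, 43.6% of the regions with exactly 1 Sox9 list were at a start, and of those with 4 or more Sox9 lists 8.90%.

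**Figure D1:**
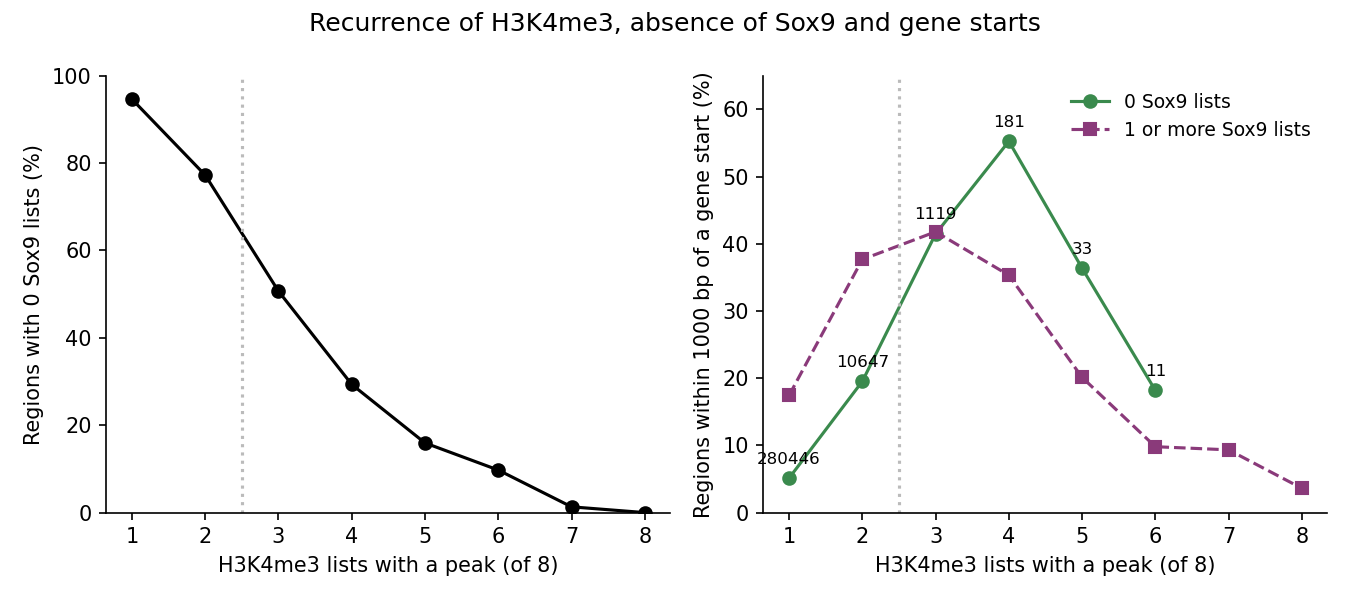
Merged regions by the number of H3K4me3 lists with a peak. Left, percent of regions with 0 Sox9 lists, from 94.6% at 1 list to 0% at 8. Right, percent of regions with a midpoint within 1000 bp of a gene start, for regions with 0 Sox9 lists (circles, with the number of regions; fewer than 10 not drawn) and with 1 or more (squares). The dotted line marks the rule's 3 lists, and the Sox9-free curve peaks at 4 lists. Either end counts as a start in genes for which no start was given.

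The same held within each library. In the 8 H3K4me3 lists, 37.7% (lowest), 40.9% (median) and 48.1% (highest) of the peaks in members had their summit at a gene start, against 6.80%, 7.21% and 9.91% of the other peaks of the same lists. The sets did not overlap, and member peaks were higher in 8 of 8 libraries. The mean difference was 34.6 ± 3.32 percentage points (SD, n = 8; exact sign-flip permutation test over libraries, two-sided, p = 0.0078, the smallest it can give). The libraries share members, so they are not independent tests. This result depended on which peaks were kept. With all 16 lists shortened to the 7379 peaks of smallest p, 73 members remained, 5.48% of them at a start, and the difference was -3.38 points (p = 0.609, same exact test). With the 8 H3K4me3 lists shortened to 24718 peaks, the share at a start was 42.3% of 338 members when peaks were drawn at random and 10.2% of 157 when taken by p.

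Around the start, members sat slightly downstream. For the 477 members within 1000 bp of a start with known strand, the median position was 87 bp into the gene, the quartiles were -31 and 303 bp, and 299 (62.7%) were within 250 bp. Shared regions had a median of 138 bp, and 66.0% of them were within 250 bp. Members were upstream in 32.5% of cases and shared regions in 24.3%. Regions of 1 H3K4me3 list without Sox9 were more spread, with 41.8% within 250 bp. These positions were not tested.

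**Figure D2:**
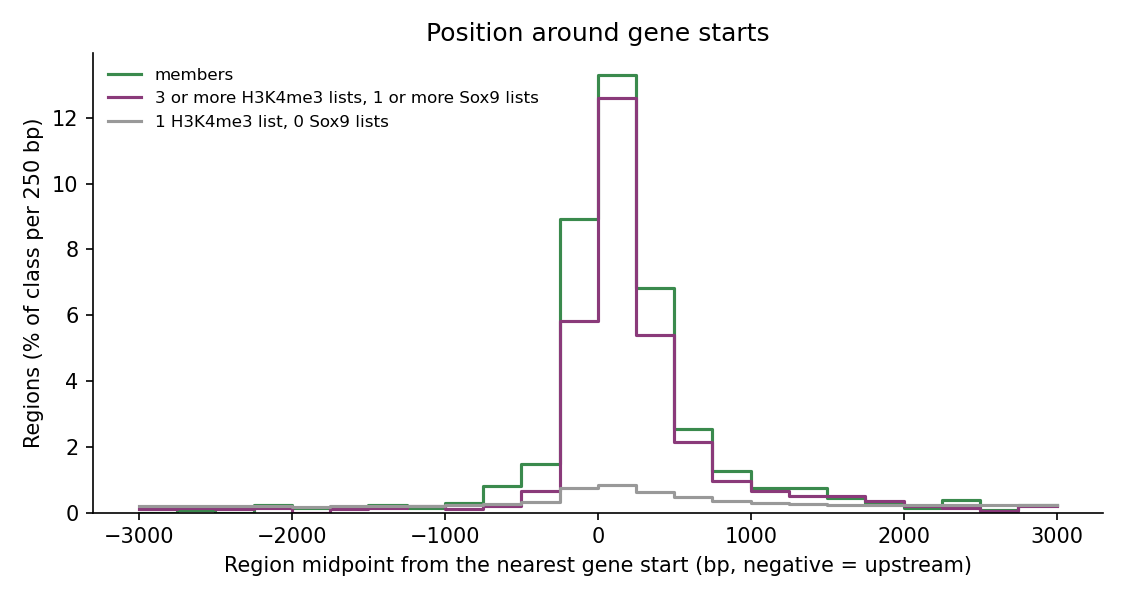
Percent of regions of each class per 250 bp bin, by the distance of the region's midpoint from the nearest start with known strand (bp, negative upstream). Members and shared regions form one peak just downstream of the start, with median positions of 87 and 138 bp among those within 1000 bp, while the curve of regions of 1 H3K4me3 list stays far lower, at 0.854% in its highest bin.

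The promoters under members were CpG-rich. A promoter is here the 250 bases before and 50 after a start, and 384 promoters of 349 genes overlapped a member. Their median GC content was 67.0%, against 57.0% for all 20085 promoters and 68.0% for the 479 under shared regions. The median observed over expected CpG was 0.900, against 0.586 and 0.881. With CpG-rich meaning GC over 50% and a ratio over 0.6, 90.9% of the promoters under members were CpG-rich, against 46.2% of all and 92.1% under shared regions. The share was already 68.8% under regions of 1 H3K4me3 list without Sox9, 85.6% with 2, 89.9% with 3 and 93.9% with 4.

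Searched on both strands, 10 short words described these promoters further, none of them tested. The GC box GGGCGG, which Sp1-type factors bind, was in 78.9% of promoters under members, 81.8% under shared regions and 47.0% of all. The TATA box TATAAA was in 3.65%, 2.09% and 12.7%. The Sox core ACAAT was in 13.5%, 11.1% and 26.8%, and among CpG-rich promoters alone in 12.3%, 10.2% and 14.9%. The longer Sox word AACAATG, which contains that core, was in 1.56%, 1.04% and 3.18%. The cAMP response element TGACGTCA was in 28 promoters under members (7.29%), 7 under shared regions (1.46%) and 2.30% of all. In CpG-rich promoters the shares were 7.16%, 1.36% and 3.79%. The ETS word CCGGAAG was in 24.5%, 17.3% and 11.9%. The remaining words were the CCAAT box (CCAAT) in 32.8%, 37.4% and 38.1%, the NRF1 word in 3.12%, 2.09% and 1.34%, the YY1 word AAGATGGCG in 4.43%, 3.13% and 1.83%, and the AP-1 word TGACTCA in 4.17%, 1.88% and 4.70%. Between members and shared regions the cAMP response element had the widest ratio of the 10 words, followed by AP-1.

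Most members were low. At their highest, 601 (44.7%) reached 2 steps, 137 reached 3, 21 reached 5 and 7 reached 10. Members at a start reached 2 steps in 56.1% of cases and members elsewhere in 36.1%. Within the libraries, 11.1% (lowest), 13.3% (median) and 34.3% (highest) of member peaks had 2 or more steps, against 2.76%, 3.20% and 7.37% of the other peaks. Member peaks were also wider, with library medians of 155 to 173 bp against 122 to 144 bp. Merged members had a median width of 342 bp (102 to 1399), and shared regions one of 513 bp. Height, width and recurrence come from the same peaks as the rule, so these values carry no test.

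The tallest members were each tall in 1 library only. A region 149512 bp from an end of Cntnap5c, a contactin-associated protein gene, reached 180 steps in the 10 day replicate 3 and 1 step in 2 lists of 48 h. A region 32397 bp from the start of Foxc1, a forkhead transcription factor gene, reached 139 steps in the same library and 2, 1 and 2 steps in replicates 1, 2 and 4 of 10 days. The third, 17633 bp from the start of the growth factor receptor gene Fgfr2, reached 106 steps there, 2 steps in replicates 2 and 4, and 1 step in 1 list of 48 h. None of the 3 was at a gene start.

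The members in most lists were mainly away from starts. The 1 member in 7 lists (chr8:121420095-121420333) lay outside protein-coding genes and overlapped the non-coding gene Gm26747. Its heights were 2, 2, 3 and 1 steps in the 10 day replicates and 1, 2 and 3 in replicates 1, 2 and 4 of 48 h, with no peak in replicate 3. Of the 9 named next, each in 6 lists, 2 were at a start. Tomm22, a receptor subunit of the translocase of the outer mitochondrial membrane, had a member of 584 bp (chr15:79670780-79671363) with 3, 2 and 1 steps in 10 day replicates 1 to 3 and 1 step in 48 h replicates 1 to 3. Cnot6, a deadenylase of the CCR4-NOT complex, had a member of 471 bp (chr11:49712499-49712969) with 3, 1, 3 and 1 steps at 10 days and 1 step in 48 h replicates 1 and 3. Of the other 7, some were inside Pnliprp1, a pancreatic lipase-related gene, Nr1h4, the bile acid receptor gene, Gtsf1 and Gypc. The rest were outside protein-coding genes, nearest to Adgrg6, Olfr16 and Tbc1d2. The Olfr16 region overlapped the non-coding gene Gm35742, and the Gtsf1 region the non-coding gene Gm52195. At the Adgrg6 region, the widest member (1399 bp), 5 of 6 peaks had 2 or 3 steps. At the Nr1h4 region all 6 had 1 step. The next widest members were the Gtsf1 region (1354 bp) and one inside Flg2 (1319 bp), which was in 2 lists of each time.

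Recurrence carried over to a list that had not chosen the regions. The H3K4me3 rule was applied to 7 lists, with no Sox9 peak in any list, and the eighth was asked whether it had a peak there. It did in 9.53% (lowest), 10.8% (median) and 26.4% (highest) of the regions over the 8 lists left out in turn. Regions in exactly 1 of the 7 lists were hit in 0.727%, 0.880% and 2.40%. The difference was 12.3 ± 5.39 percentage points (SD, n = 8), positive in 8 of 8 (exact sign-flip permutation test, two-sided, p = 0.0078). The ratio ran from 9.31 to 13.1. So the regions were found again about 11.6 times as often as single-list regions, while most of them had no peak in the list left out. With a summit asked for within 200 bp on either side of the midpoint, whatever the region's width, the difference was 10.2 points. The 8 choices of regions overlap, so they are not independent tests.

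Absence of Sox9 was put to a left-out list in the same way. Regions with 3 or more H3K4me3 lists and no peak in 7 of the Sox9 lists had a Sox9 peak in the eighth in 3.31% (lowest), 6.76% (median) and 12.4% (highest). Regions of 1 H3K4me3 list that were free of the same 7 Sox9 lists had one in 0.226%, 0.514% and 1.66%. The difference was 6.43 ± 2.47 percentage points (SD, n = 8), positive in 8 of 8 (exact sign-flip permutation test, two-sided, p = 0.0078). Regions of 3 or more H3K4me3 lists were thus hit more often than single-list regions, while most of both had no peak in the left-out list. Both kinds were chosen free of the other 7 Sox9 lists, so the comparison cannot say whether absence of Sox9 carried over. The 8 choices of regions overlap, so they are not independent tests. At starts, 2.53% to 9.69% of the regions of 3 or more H3K4me3 lists were hit, against 0.936% to 4.15% of single-list regions. Elsewhere the shares were 3.88% to 14.4% and 0.187% to 1.52%. Over all positions, the highest share belonged to the longest Sox9 list and the lowest to the shortest. Members were also wider than single-list regions, with median widths of 342 and 132 bp. With a hit meaning a Sox9 summit within 200 bp on either side of the region's midpoint, whatever its width, the difference was 4.89 points.

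**Figure D3:**
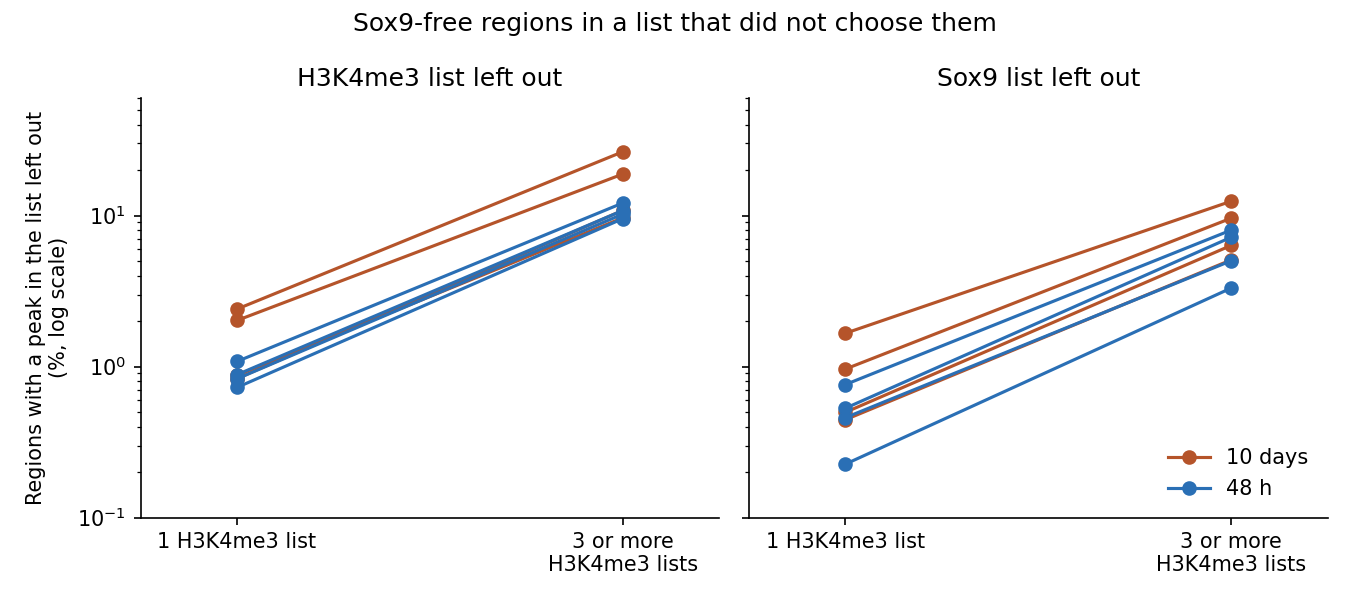
Percent of Sox9-free regions with a peak in a list that took no part in choosing them (log scale), for regions in 1 and in 3 or more of the remaining H3K4me3 lists. Each line is 1 list left out (left H3K4me3, right Sox9), coloured by time. All 16 lines go up, by 9.31 to 13.1 times for H3K4me3 and 7.48 to 14.6 times for Sox9.

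Sox9 peaks also lay near members. The nearest Sox9 summit of any list was a median of 2173 bp away, against 3639 bp for regions of 1 H3K4me3 list without Sox9, and within 1000 bp for 426 members (31.7%) against 17.7%. At starts these shares were 40.5% and 41.7%, and away from starts 25.0% and 16.4%. Counted by gene, 655 protein-coding genes (3.17% of 20665) had a member at a start, 9 of them 2 members, and 85 members were at the starts of 2 or more genes. A Sox9 peak of at least 1 list was within 1000 bp of a start in 314 of the 655 genes (47.9%), and in 47.1% of all genes. Among the 3678 genes with H3K4me3 in 3 or more lists at a start, 1087 had 0 Sox9 lists there, 341 of them with a member. A region free of Sox9 thus did not mean a gene start free of Sox9. Whether genes with a member differ in this from other genes with recurrent H3K4me3 was not tested. A shared region was at a start of 17 of the 655 genes, and of 3.48% of all genes.

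Members were compared between 10 days and 48 h over the 4 libraries of each time. At 10 days replicates 1 to 4 had a peak in 905, 463, 732 and 446 members. At 48 h they had one in 431, 444, 531 and 367. Replicates 1 and 3 of 10 days stood above all others, and the rest of the 2 groups overlapped. These 2 libraries also had the longest lists, with 84789 and 71149 peaks, where the other 6 had 24718 to 35595. The log2 difference of 10 days over 48 h was 0.47. The calls counted here are those that chose the members, so this value and the share of the list that follows carry no test.

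As a share of the list, the order turned round. Peaks in members made up 1.09%, 1.57%, 1.04% and 1.44% of the lists of 10 days and 1.54%, 1.41%, 1.50% and 1.50% of those of 48 h. The difference was -0.20 percentage points, and 0.03 points without replicates 1 and 3 of 10 days. Of the members with a peak, 47.7%, 41.5%, 45.4% and 37.4% were at a gene start at 10 days and 40.6%, 39.6%, 46.5% and 39.0% at 48 h. The groups overlapped, and the difference was 1.57 points (exact permutation test of 4 against 4, two-sided, p = 0.657, and 0.657 adjusted over 3 comparisons; the smallest p it can give is 0.0286).

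**Figure D4:**
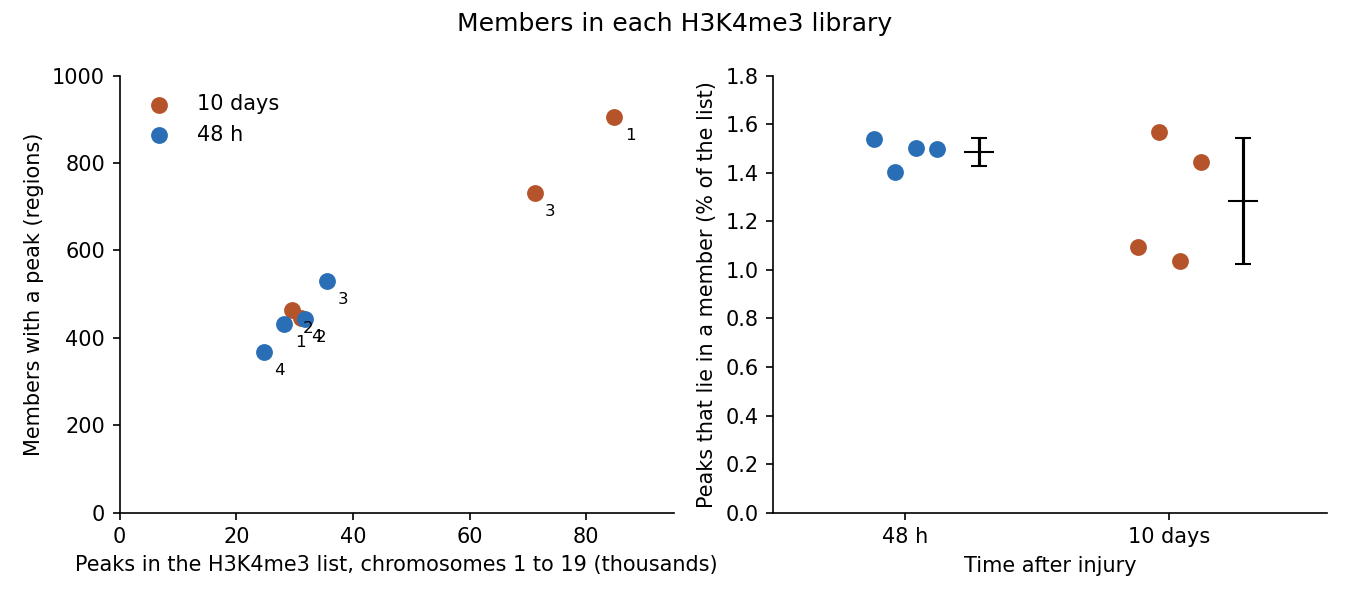
Left, members with a peak against the number of peaks in each of the 8 H3K4me3 lists, numbered by replicate. Right, peaks that lie in members as a percent of the list, by time, with the mean and SD (n = 4). The 2 longest lists, both of 10 days, hold 905 and 732 members and the lowest shares, 1.09% and 1.04%.

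Few members were confined to 1 time. Peaks were at 10 days only in 175 members (13.0%), against 9.78% of all 3304 regions with 3 or more H3K4me3 lists, and at 48 h only in 25 (1.86%), against 1.85%. In every library of 10 days and none of 48 h were 8 members (0.595%, against 0.484%), and the reverse held for 3 (0.223%, against 0.212%). Those 3304 regions include the members. Among the 1959 shared regions alone the shares were 7.55% at 10 days only and 1.84% at 48 h only, and 0.408% and 0.204% for the stricter patterns. None of these differences was tested. The 2 long lists hold many members: 462 members had a peak in replicates 1 and 3 of 10 days together and 170 in neither. Without both, 56 of 373 members were at 48 h only, and the 2 lists of 10 days that are left cannot make a member by themselves.

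The 3 members of every 48 h library were all at gene starts. Slc5a8, a sodium-coupled monocarboxylate transporter, had its member (chr10:88886222-88886523) 380 bp from the start, with 1 step in each library. Spesp1, a gene of the sperm equatorial segment, had its member (chr9:62281941-62282296) 61 bp from the start, also with 1 step in each. Wtap, the regulatory subunit of the RNA m6A methyltransferase, had its member (chr17:12992427-12992764) 52 bp from the start with 1, 1, 2 and 1 steps. A Sox9 summit lay 6111, 629 and 301 bp from these 3 members. Next came members in 3 of the 4 libraries of 48 h, away from starts. One inside Agbl1 had 2, 1 and 1 steps in replicates 1, 3 and 4, and one inside Gdpd1 had 2, 2 and 1 steps in replicates 1 to 3. The Spesp1 and Wtap promoters are among the printed sequences.

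Of the 8 members in every 10 day library, 2 were at a start. Sumo2, a ubiquitin-like modifier, had its member (chr11:115536045-115536561) 72 bp from the start with 2, 1, 2 and 1 steps. The other was 229 bp from the start of 2510009E07Rik, with 2, 1, 1 and 2 steps. The remaining 6 were the Foxc1 region and regions nearest to Akap13, Ttll7, Nup35 and Rnf145, all outside genes, and 1 inside Spata17. Apart from the Foxc1 region none of these 8 passed 3 steps.

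Gene families differed in how many of their genes had a member at a start, beside the 3.17% of all genes. Of 26 families, 15 had at least 1, and 10 were above that share. The counts are small, and at this size they describe the families without setting any apart. The histone genes had 8 of 74 (10.8%). The core histone genes among them are packed in clusters, and H2bc7 and H2ac7 share 1 member (chr13:23573842-23574016). H4c4 (chr13:23581687-23581905) had 4 lists, and H2az2, which encodes an H2A.Z variant, H2bc7, H2ac7, H2ac4, H4c11, H3c13 and H2bc18 had 3 each. The 1 member of H2bc7 and H2ac7 and that of H4c11 were in 3 lists of 10 days and 0 of 48 h. H4c4 was in 3 and 1, and the other 4 genes in 1 of 10 days and 2 of 48 h. Of all members, 13.0% had peaks at 10 days only, and the 2 longest lists were of that time. These time patterns were not tested.

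Other families of cell machinery had a few genes each, some above and some below the 3.17% of all genes. RNA splicing factors of the SR and hnRNP groups had 4 of 40, Hnrnpa0 in 4 lists and Srsf2, Hnrnpdl and Sf3a2 in 3. Mitochondrial ribosomal proteins had 6 of 78, led by Mrps34 in 5 lists (3 of 10 days, 2 of 48 h). Oxidative phosphorylation had 4 of 77: Ndufb3 and Ndufb2 of complex I, Cox5a of complex IV and Atp5md of the ATP synthase. Cytoplasmic ribosomal proteins had 2 of 80, Rpl13 and Rpl34. Some of these members lay nearer to another gene. The Ndufb3 member was 35 bp from Fam126b and 208 bp from Ndufb3, and the Srsf2 member 115 bp from Mfsd11 and 553 bp from Srsf2. Shared regions were at 7 of the 40 splicing genes, 1 of the 78 mitochondrial ribosomal genes and 2 of the 74 histone genes, and at 3.48% of all genes.

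Zinc finger genes named Zfp had 14 of 388 (3.61%), with Zfp704 in 5 lists and Zfp609, Zfp869 and Zfp553 in 4. The Zfp609 member (chr9:65827297-65827716) reached 6 steps. Solute carriers had 10 of 333 (3.00%), among them Slc5a8 and the iodide transporter gene Slc5a5 in 4 lists. Potassium channels had 5 of 92, kinesins 3 of 37 and ubiquitin-specific proteases 3 of 49. Clustered protocadherins had 1 of 57. Several families of tissue-restricted genes had none: 0 of 1100 olfactory receptors, 0 of 352 vomeronasal receptors, 0 of 97 cytochrome P450 genes, 0 of 49 keratins and 0 of 56 keratin-associated proteins. These families had no shared region either, apart from 1 keratin-associated protein gene. Hox genes (0 of 39) and collagens (0 of 42) had no member, while 4 Hox genes and 2 collagens had a shared region.

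**Figure D5:**
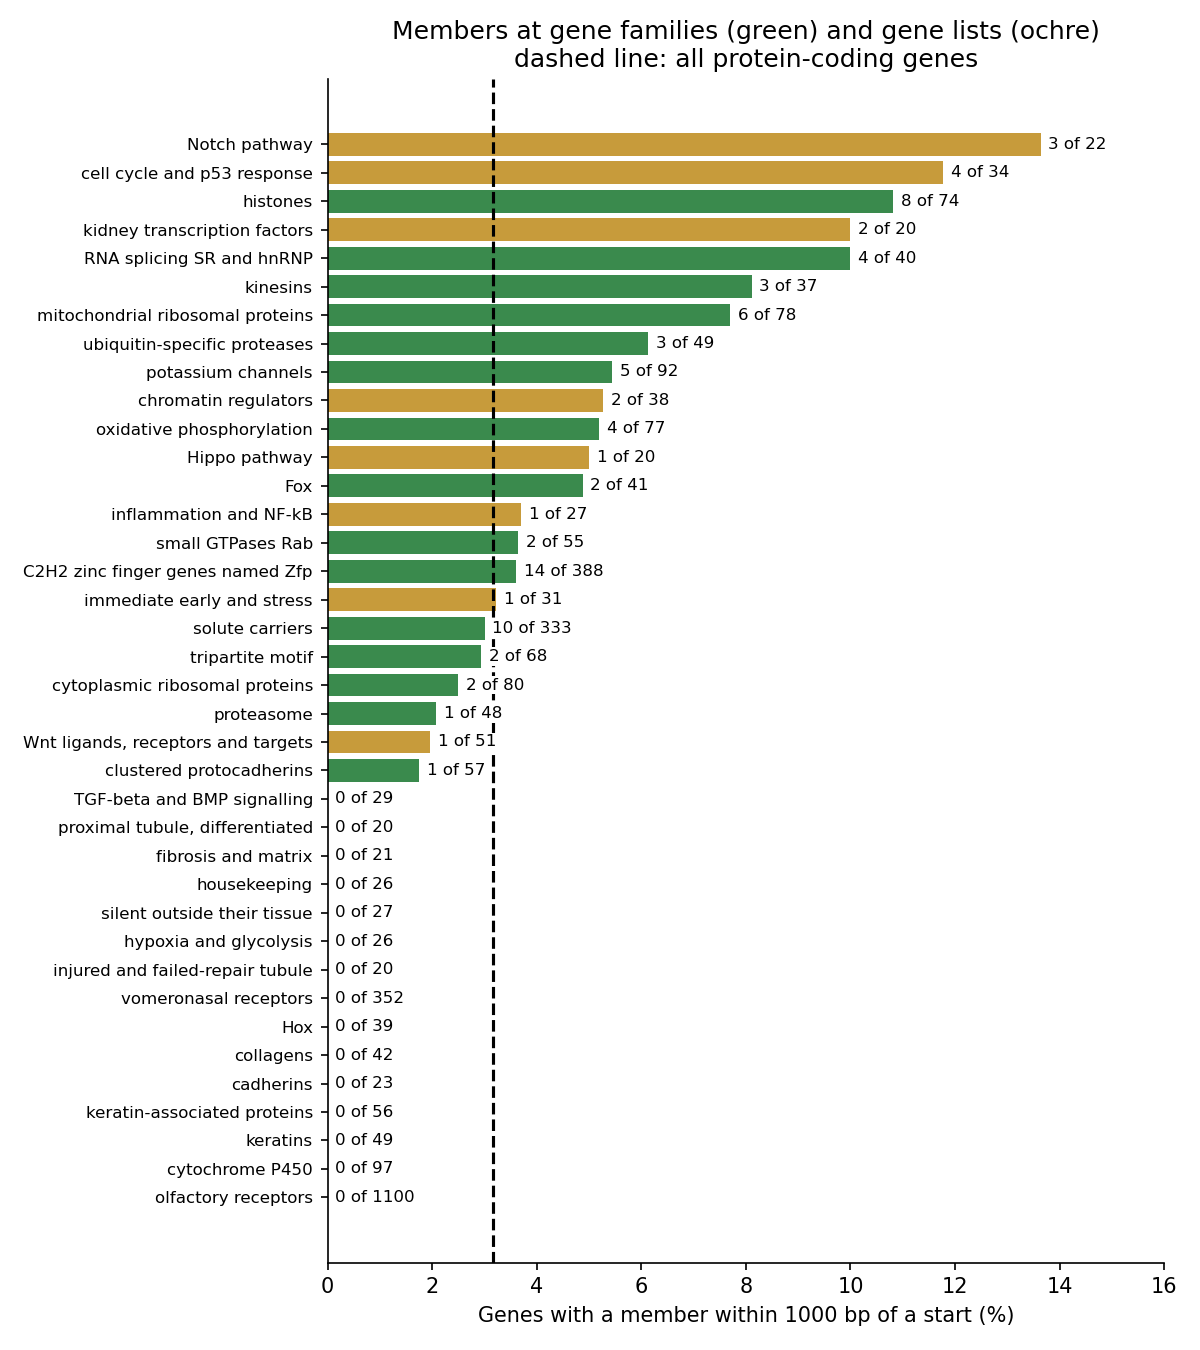
Percent of genes with a member within 1000 bp of a start, for families (green) and gene lists (ochre) of at least 20 genes, with the counts. The dashed line is the 3.17% of all protein-coding genes. Bars rest on at most 14 genes.

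Of 21 lists of kidney and pathway genes, 9 had a member. Among kidney transcription factors it was 2 of 20, Pax2 and Wt1, both factors of nephron formation. Pax2 (chr19:44756766-44757119) and Wt1 (chr2:105126823-105127165) were in 1 list of 10 days and 2 of 48 h. Both members were 1 step high, and Pax2 had Sox9 peaks of 4 lists elsewhere within 1000 bp of its starts. In the Notch pathway, 3 of 22 genes had one: Rfng, a glycosyltransferase that modifies Notch receptors, Maml1, a coactivator, and Hey2, a target repressor. Each was in 3 lists with a highest peak of 2 steps. The cell cycle and p53 list had 4 of 34. Mdm2, the ubiquitin ligase of p53, and Rb1, the retinoblastoma protein, reached 3 steps, and the cyclin-dependent kinases Cdk2 and Cdk4 had 1 step.

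The other lists had 1 or 2 genes or none. The DNA demethylases Tet2 and Tet3 had a member among 38 chromatin regulators, and so had Gsk3b of the Wnt list (1 of 51, in 4 lists), Wwc1 of the Hippo list (1 of 20), Relb of the inflammation and NF-kB list (1 of 27) and Jun of the immediate early list (1 of 31, up to 3 steps). No member was at a start of 20 genes of injured tubule, 20 of differentiated proximal tubule or 17 of the loop, distal tubule and collecting duct. The same held for 15 genes of endothelium, 14 of stroma and mural cells, 16 of immune cells and 18 Sox genes. It also held for 29 genes of TGF-beta and BMP signalling, 26 of hypoxia and glycolysis and 21 of fibrosis and matrix. Nor was there a member at 26 housekeeping genes or 27 genes silent outside their tissue. Beside the 3.17% of all genes, lists of this size are not set apart by having none. Shared regions were at 3 of 18 Sox genes, 3 of 29 TGF-beta and BMP genes and 3 of 26 hypoxia and glycolysis genes. They were also at 2 of 21 fibrosis and 2 of 26 housekeeping genes, and at 3.48% of all genes. Most of these assignments hang on 1 library, since a member in 3 lists falls below the rule when 1 of them is left out. Of 60 genes named from families and lists, 23 still had a member without replicate 1 of 10 days and 37 without replicate 3. Without any other single replicate it was 39 (replicate 3 of 48 h) to 50 (replicate 2 of 48 h).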

How the data were processed

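H3K4me3 and Sox9 CUT&RUN peak lists of 8 pellets (4 per time) were analysed. The submitters' processing notes name MACS3, Bowtie, Bowtie2 and Partek 10, and build mm10, and per the file headers' peak names each list was called against the input of the same time and number. Read filters, duplicate handling, scaling and threshold are not given in the sources used here. The authors deposited, per peak, a fold over background (a ratio), a −log10 p and a −log10 q, and a display score that was not used.

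Presence was 1 bp of overlap. Gene starts and promoters came from RefSeq tables of GRCm38.p6: 16457 protein-coding genes were placed by start and 4208, for which no start was given, by either end. Regions were placed by midpoint and peaks by summit. No promoter was given for chromosome 18. The 3 comparisons of time were all computed, and p is printed for the percent at a start alone, since the other 2 count the calls that chose the members. Tests were exact permutations of 4 against 4 libraries (70 arrangements) and exact sign flips over 8 lists (256 flips), in Python 3.11.15 with NumPy 2.4.6, pandas 2.3.3 and SciPy 1.17.1, and were tested on simulated data. Libraries of a group are separate biological replicates per the labels.

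Members, families and gene lists were chosen with earlier results of these data known. Text named the 10 members in most lists, 5 of each time, those in every library of 1 time, the 3 tallest and widest, and up to 4 genes per list or family in order of lists. Other members of the histone and marker sets were named after their values were seen. Chosen after the files were seen were the midpoint rule, strand positions, the 10 words, the CpG-rich limit, the distance to Sox9 peaks and the split of the Sox9 test by position. Family patterns that had caught other genes were corrected after counts had been seen, for the histone, Rab, ubiquitin-specific protease, proteasome and glutamate receptor families, and the histone count changed. The podocyte and parietal epithelium list is not reported here. Alternatives were a q filter, equal list lengths, 50 bp of overlap, extended summits, 2 or 4 lists, other windows, leaving out each replicate, and 6 added after seeing the data.

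Same-numbered libraries of the 2 times did not deviate together (correlations across members -0.00083, 0.015, 0.019 and -0.0062), so the numbers were not taken to pair them.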

Additional observations from a re-analysis of the deposited data

How the results depend on the processing

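With 4 or more lists asked for there were 226 members, 50.4% at a start, at 123 genes, 8 at 10 days only and 3 at 48 h only. With 2 or more there were 11992, 22.2% at a start, at 2773 genes, 3751 at 10 days only and 1347 at 48 h only. Equal list lengths by p gave 73 members, 5.48% at a start against 6.95% of regions of 1 H3K4me3 list, 4 genes, 13 and 1 members of 1 time only, and 1 and 0 in every library of 1 time. There the start difference was -3.38 points (p = 0.609, exact sign flips) and the share of the list differed by 0.176 points. Alternatives added after seeing the data shortened the H3K4me3 lists alone. By p this gave 157 members, 10.2% at a start against 3.67% for 1 list, 18 genes, 15 and 13 of 1 time only, 3 and 0 in every library, and a share difference of 0.032 points. At random it gave 338 members, 163 genes, 19 at 10 days only, 1 and 1 in every library, and a log2 difference in number of -0.075. The cause was not tested.

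A 3000 bp window put 49.0% of members and 10.2% of 1-list regions at a start, gene bodies 67.0% and 47.4%, and known starts alone 35.5% and 3.86%. Counting both ends of every gene gave 6.17% of 1-list regions. The time difference in percent at a start turned to -2.24 points with 4 or more lists and -1.40 with gene bodies.

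Leaving out 1 replicate gave 701 to 1136 members (701 without replicate 1 of 10 days, 815 without replicate 3), 35.8% to 44.8% at a start, at 278 to 561 genes (278 without replicate 1, 405 without replicate 3). It gave 31 to 200 at 10 days only, 6 to 38 at 48 h only, 9 to 74 and 3 to 12 in every library of 1 time, and a time difference at starts of -0.452 to 3.52 points, negative without replicate 1 of 10 days. Without replicates 1 and 3 of 10 days together there were 373 members, 32.2% at a start, at 131 genes, 56 at 48 h only, 6 in every library of 48 h, a share difference of 0.029 points and a start difference by time of -1.77 points. The counts for 10 days alone are then 0 by construction, since 2 lists of that time cannot make up 3. With the replicate block the values were 0.47 (log2 number), -0.20 points (share) and 1.57 points (percent at a start, p = 0.625) (exact sign flips of 4 pairs, smallest p 0.125), so this design cannot pass 0.05. Both results on left-out lists kept their direction and side of the threshold in every alternative run. Depth is unknown, so a list without a peak does not show absence of H3K4me3 or Sox9.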
